A study of Mus musculus with 4 samples.

Results

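Type IV collagen, laminin and nidogen genes of the basement membrane were examined in kidney RNA of mice with and without Zbp1. The 10 members encode 5 chains of type IV collagen (Col4a1, Col4a2, Col4a3, Col4a4 and Col4a5), 4 laminin chains (Lama5, Lamb1, Lamb2 and Lamc1) and nidogen 1 (Nid1), and were taken by symbol from the 54532 genes counted in each library. All 10 members were found, each under 1 Ensembl ID, and all 10 passed the filter on low counts, as did 14908 genes in all.

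Basement membranes are thin sheets of matrix on which epithelial and endothelial cells rest. Type IV collagen chains wind into trimers that link into a network, and laminin trimers of 1 alpha, 1 beta and 1 gamma chain form a second network, with nidogen binding laminin and collagen. In most basement membranes, including those of kidney tubules and the mesangium, the collagen trimer is α1α1α2. In the mature glomerular basement membrane, through which plasma is filtered, podocytes deposit the α3α4α5 trimer, whose loss causes Alport syndrome, and laminin α5β2γ1 replaces α5β1γ1.

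The 4 libraries were polyA RNA of kidneys of C57BL/6J mice, 2 from wild-type (WT) animals and 2 from Zbp1-/- animals (Zbp1-KO), in which exons 2 to 8 of Zbp1 had been removed in the germ line with CRISPR-Cas9. ZBP1 senses nucleic acids in the Z form. All mice, WT included, were given 500 µL pristane into the peritoneal cavity when 8 weeks old and were killed 8 months later, and kidneys without pristane were not analysed here. The mice of the pristane experiment were described as female, and WT animals as purchased, so that genotype and source of the animals cannot be told apart. The labels do not say whether each library came from 1 animal, and p-values measure only the spread between these libraries. The comparison asked whether the genes of the filtration barrier and of the general basement membrane differed between genotypes in kidneys with lupus-like disease.

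Total counts ranged from 9878776 to 12921925, of which 49.5% to 61.5% fell on mitochondrially encoded genes. The members took 12829 to 16352 counts, or 0.283% to 0.323% of the counts on all other genes. Zbp1, the targeted gene, had 94 and 125 counts in WT, against 18 and 0 counts in Zbp1-KO, lower in both as labelled. Its log2 fold change was −3.64 ± 0.89 (SE, n = 2 each), which the quasi-likelihood F test of edgeR, with Benjamini-Hochberg adjustment over all tested genes and a threshold of 0.05, did not call (adjusted p = 0.999), although that test did call it without Zbp1-KO 1 (edgeR adjusted p = 0.00156) and without Zbp1-KO 2 (edgeR adjusted p = 0.0449). It was not called without WT 1 or without WT 2 (edgeR adjusted p = 1.00 each). The marker lists for podocytes, endothelium, mesangium and pericytes, proximal tubule, distal tubule and collecting duct had counts on every gene in every library.

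Collagen IV genes lie in pairs that are read in opposite directions from a common start region. Col4a1 (ENSMUSG00000031502, chr8:11198423-11312826, minus strand) and Col4a2 (ENSMUSG00000031503, chr8:11312805-11449287, plus strand) have annotated starts 21 bases apart in GENCODE M21 (GRCm38). The starts of Col4a3 (ENSMUSG00000079465, chr1:82586921-82722059, plus strand) and Col4a4 (ENSMUSG00000067158, chr1:82448423-82586849, minus strand) lie 72 bases apart. Col4a5 (ENSMUSG00000031274, chrX:141475385-141689234, plus strand) lies 1309 bases from Col4a6. The promoter windows of the first 2 pairs are shown because each pair encodes chains of 1 trimer and the pairs had opposite signs in the comparison. None of these genes was called, and whether the sequences bear on the signs was not tested. RefSeq windows (GRCm38.p6, 250 bases before to 50 after the start) were found for 8 of 10 members, without Col4a3 and Lamc1. In the windows of Col4a1 (chr8:11312777-11313076, minus strand) and Col4a2 (chr8:11312555-11312854, plus strand), capitals mark the 78 bases that both hold, each on its own strand. In the window of Col4a4 (chr1:82586800-82587099, minus strand), capitals mark the 73 bases from the start of Col4a3 to that of Col4a4. Each is written 5′ to 3′.
Col4a1: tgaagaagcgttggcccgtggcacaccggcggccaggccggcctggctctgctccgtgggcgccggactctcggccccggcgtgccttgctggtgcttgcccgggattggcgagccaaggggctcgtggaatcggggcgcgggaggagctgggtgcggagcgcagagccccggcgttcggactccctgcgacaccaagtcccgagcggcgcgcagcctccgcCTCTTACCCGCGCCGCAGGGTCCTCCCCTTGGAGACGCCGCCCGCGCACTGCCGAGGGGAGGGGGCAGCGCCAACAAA
Col4a2: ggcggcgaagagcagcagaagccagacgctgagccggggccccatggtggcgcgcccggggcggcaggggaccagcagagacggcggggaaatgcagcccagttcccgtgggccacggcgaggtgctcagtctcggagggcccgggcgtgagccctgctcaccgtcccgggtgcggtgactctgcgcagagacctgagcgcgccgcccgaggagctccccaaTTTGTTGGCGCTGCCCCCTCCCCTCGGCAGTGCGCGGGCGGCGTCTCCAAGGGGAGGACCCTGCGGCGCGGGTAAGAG
Col4a4: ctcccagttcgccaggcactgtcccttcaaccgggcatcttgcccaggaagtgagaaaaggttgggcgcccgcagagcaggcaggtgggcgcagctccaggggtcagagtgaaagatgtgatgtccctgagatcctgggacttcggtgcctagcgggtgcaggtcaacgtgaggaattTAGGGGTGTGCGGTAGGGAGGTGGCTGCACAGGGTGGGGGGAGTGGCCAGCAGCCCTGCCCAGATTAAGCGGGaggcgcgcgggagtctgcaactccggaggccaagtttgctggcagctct

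The window of Col4a1 had 74.0% G and C, that of Col4a2 73.7% and that of Col4a4 63.3%, against a median of 52.7% over 32851 promoter windows. The GC box (GGGCGG, searched on both strands) occurred once in the Col4a1 window, 3 times in that of Col4a2 and not in that of Col4a4, and 35.7% of all windows held it. None of the 8 member windows held TATAAA on either strand, a motif found in 13.6% of all windows.

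No member differed between genotypes by the test. Of the 10 members, 0 were called higher and 0 lower by that test among the 14908 genes, where 0.0134% of all genes were called higher and 0% lower. With the unadjusted p, 0 members fell under 0.05 in either direction, against 1.91% and 1.97% of all genes. The exact test of edgeR and the Wald test of DESeq2 also called 0 members. The log2 fold changes of Zbp1-KO over WT ran from −0.25 to 0.31, with 6 above 0 and 4 below, and their median was 0.060, beside −0.0061 over all genes tested. Both Zbp1-KO libraries lay above both WT libraries for 1 member, Col4a4, and below both for 1, Col4a1, where 16.0% and 16.3% of all genes did so.

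The fit gave an interval for the genotype difference of each member on its own, not for all 10 together. The 95% intervals of the fold change, which rest on the spread estimated in the edgeR fit, reached from 0.604-fold at the lowest to 1.69-fold at the highest, so that all 10 lay within a 2-fold change either way. The same held for 48.0% of all genes tested. The median width of the interval was 0.89 on the log2 scale for the members and 1.49 for all genes. By level per kilobase, the members ranked from percentile 63.8 (Lamc1) to percentile 95.4 (Col4a1) of the tested genes. Their intervals were not compared with those of genes of like level.

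**Figure D1:**
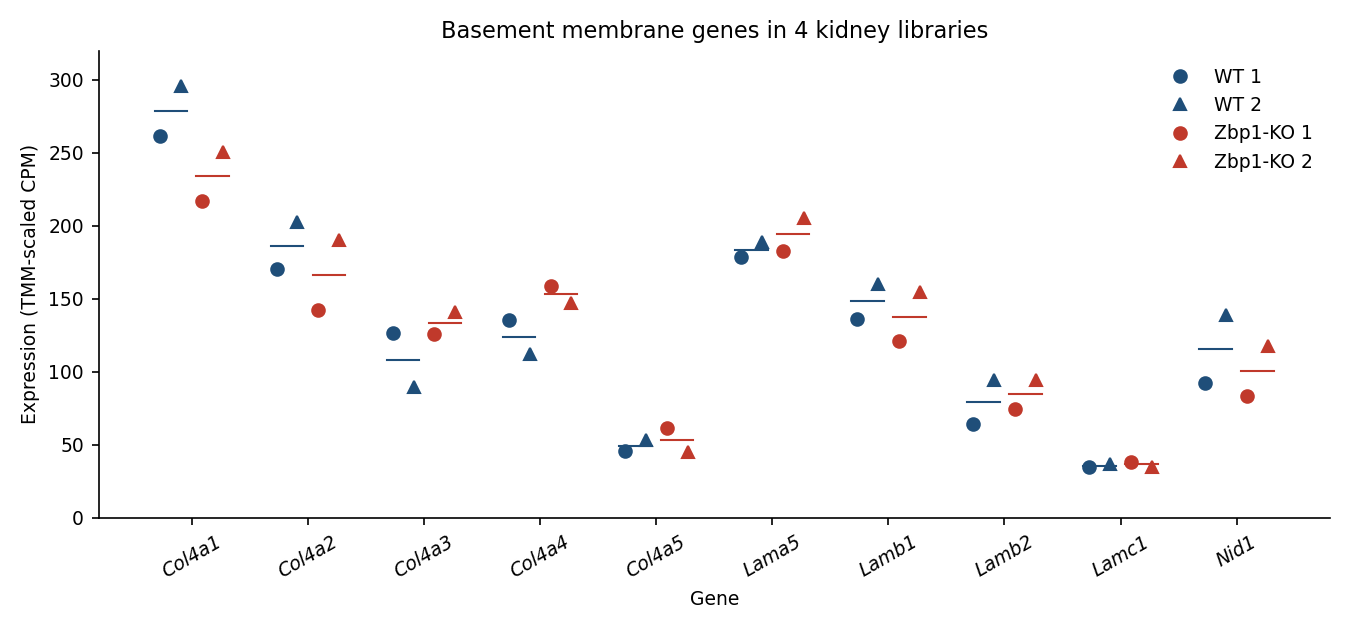
Expression of the 10 members in TMM-scaled CPM in each library; points are single libraries (circles replicate 1, triangles replicate 2) and short lines the mean of the 2 libraries of a genotype. Points of both genotypes overlap for 8 genes, whereas Col4a1 was lower and Col4a4 higher in both Zbp1-KO libraries.

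The chains of the general collagen network were the members with the highest levels per kilobase of exon. Col4a1, which gives 2 of the 3 chains of the α1α1α2 trimer, measured 261 and 296 CPM (counts per 1000000 counts, after TMM scaling) in WT, against 217 and 251 CPM in Zbp1-KO. Both Zbp1-KO libraries were lower than both WT libraries, by a gap smaller than that between the replicates of either genotype. The means were 279 ± 24.4 and 234 ± 23.8 CPM (SD, n = 2 each), with a log2 fold change of −0.25 ± 0.18 (SE, edgeR adjusted p = 0.999). Col4a2, the third chain of that trimer, measured 170 and 203 CPM in WT, against 142 and 191 CPM in Zbp1-KO, so that the groups overlapped. Its log2 fold change was −0.16 ± 0.20 (SE), and without Zbp1-KO 1 it was 0.025. For both genes the lowest library was Zbp1-KO 1 and the highest WT 2.

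The chains of the glomerular network had log2 fold changes above 0, none of them called. Col4a4 measured 136 and 112 CPM in WT, against 159 and 147 CPM in Zbp1-KO, and both Zbp1-KO libraries were higher than both WT libraries. The means were 124 ± 16.5 and 153 ± 8.47 CPM (SD, n = 2 each), with a log2 fold change of 0.31 ± 0.18 (SE), which the test did not call (edgeR adjusted p = 0.999, unadjusted p = 0.124). Col4a3 measured 127 and 89.7 CPM in WT, against 126 and 141 CPM in Zbp1-KO. WT 1 was as high as Zbp1-KO 1, and WT 2 stood lowest. Its log2 fold change was 0.30 ± 0.21 (SE), 0.57 without WT 1 and 0.071 without WT 2. Col4a5, the X-linked chain, measured 45.8 and 53.2 CPM in WT, against 61.4 and 44.9 CPM in Zbp1-KO. The Zbp1-KO libraries held both its highest and its lowest value, and its log2 fold change of 0.11 ± 0.22 (SE) became −0.15 without Zbp1-KO 1. A non-coding gene on the other strand, C430014B12Rik, shares 563 exon bases with Col4a3 and had 0 to 22 counts in a library. The methods describe strand-specific libraries, whereas the labels name no strand and the strand setting of the counting was not given, so pairs in the shared stretch may have been left out or given to either gene.

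To compare the networks without any scaling between libraries, counts were divided by exon length in kilobases and set as ratios within each library. Col4a3, Col4a4 and Col4a5 together reached 0.531 and 0.391 of the summed level of Col4a1 and Col4a2 in WT, and 0.727 and 0.557 in Zbp1-KO. Both Zbp1-KO ratios were above both WT ratios, and the nearest values, 0.531 in WT 1 and 0.557 in Zbp1-KO 2, lay close to each other. The mean log2 ratio was −1.13 ± 0.31 in WT and −0.65 ± 0.27 in Zbp1-KO (SD, n = 2 each), a difference of 0.48. The exact permutation test, two-sided, gave p = 0.33, the smallest value that 2 libraries against 2 can reach, and 0.667 after adjustment over the 4 ratios computed. The difference was between 0.26 and 0.70 with any 1 library left out. Of the 2 sums, only that of Col4a3, Col4a4 and Col4a5 separated the genotypes. Its mean was 29.9 ± 3.39 CPM per kilobase in WT and 35.8 ± 1.45 in Zbp1-KO (SD, n = 2 each). The sum of Col4a1 and Col4a2 had a lower mean in Zbp1-KO, 56.5 ± 8.34 against 65.5 ± 6.70 in WT, but its values overlapped. They were 60.8 and 70.2 CPM per kilobase in WT, against 50.6 and 62.4 in Zbp1-KO.

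Podocyte markers were higher in sum in the same libraries as the glomerular chains. The summed level of 8 podocyte markers was 119 and 116 CPM in WT, against 142 and 171 CPM in Zbp1-KO, higher in both Zbp1-KO libraries, and no marker was at 0 in any library. Of the 8, 7 had a log2 fold change above 0 and 0 were called, and 5 did not overlap between genotypes, where 16.0% of all genes were higher in both Zbp1-KO libraries. Synpo, which encodes an actin-binding protein of podocyte foot processes, had a log2 fold change of 0.65 ± 0.21 (SE, edgeR adjusted p = 0.999, unadjusted p = 0.00865). Nphs1, which encodes nephrin, overlapped between genotypes, with 7.48 and 15.1 CPM in WT, against 12.2 and 13.4 CPM in Zbp1-KO. Per kilobase, the summed glomerular chains were 1.45 and 1.35 times the summed podocyte markers in WT, against 1.47 and 1.14 times in Zbp1-KO. These ratios overlapped (exact permutation p = 1.00, two-sided). In RNA of a bulk tissue, more cells of a type and more RNA per cell cannot be told apart, nor can the share of glomeruli in the piece of tissue.

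**Figure D2:**
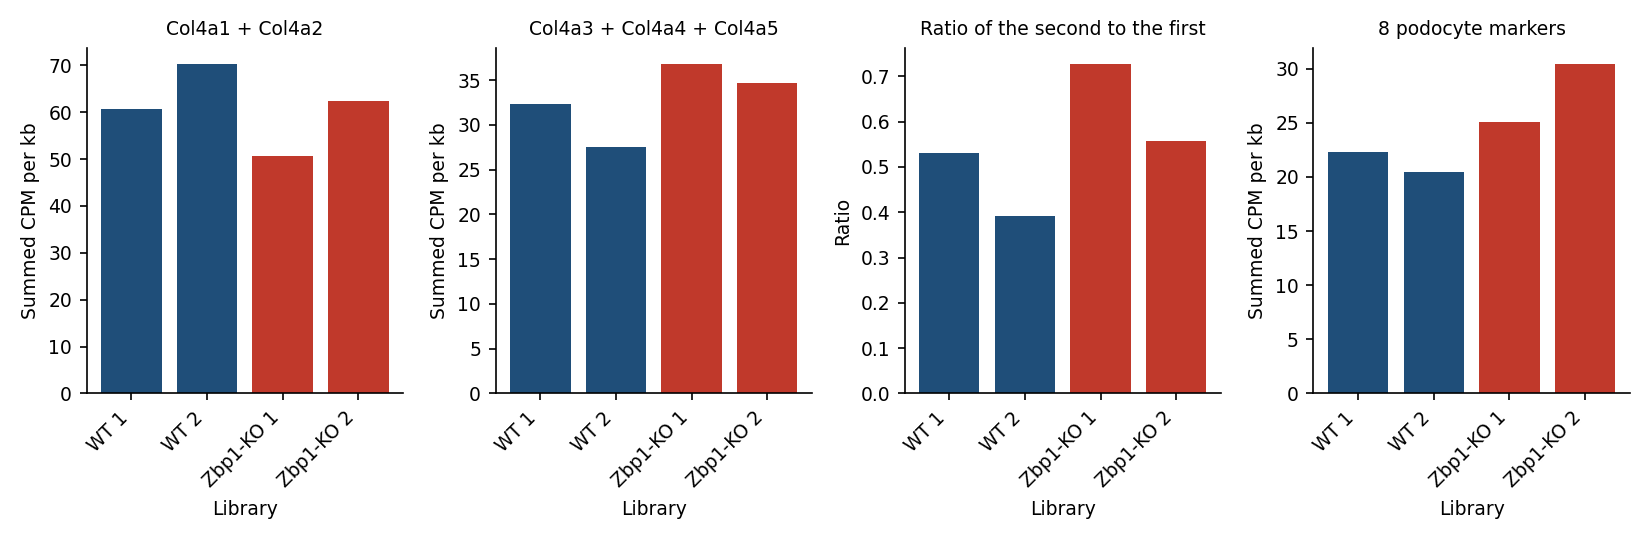
Summed levels (CPM per kilobase of exon) of Col4a1 and Col4a2, of Col4a3, Col4a4 and Col4a5, the ratio of the second sum to the first, and the summed level of 8 podocyte markers. Each bar is 1 library, blue for WT and red for Zbp1-KO; the ratio was 0.531 and 0.391 in WT, against 0.727 and 0.557 in Zbp1-KO, and podocyte markers were also higher in both Zbp1-KO libraries.

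The summed markers of endothelium, of mesangium and pericytes and of fibroblasts overlapped between genotypes. The summed endothelial markers were 279 and 336 CPM in WT, against 329 and 297 CPM in Zbp1-KO, and the mesangial and pericyte markers 193 and 248 CPM against 202 and 223 CPM. Interstitial fibroblast matrix genes summed to 881 and 665 CPM in WT, against 422 and 737 CPM in Zbp1-KO, overlapping. All 8 had log2 fold changes below 0, and the lowest sum was in Zbp1-KO 1, where Col4a1 and Col4a2 were also lowest. That library was not lowest for fibroblast genes alone. Proximal tubule markers summed to 2014 and 2395 CPM in WT, against 1561 and 2401 CPM in Zbp1-KO. Smooth muscle markers summed to 194 and 181 CPM in WT, against 152 and 211 CPM in Zbp1-KO. Thick ascending limb and distal tubule markers were highest in Zbp1-KO 1, at 1918 CPM. Per kilobase, Col4a1 and Col4a2 were 1.18 and 1.11 times the endothelial markers in WT, against 0.823 and 1.12 times in Zbp1-KO (exact permutation p = 0.667, two-sided). Other lists did separate the genotypes in sum. Adipocyte markers (6 genes) summed to 80.1 and 106 CPM in WT, against 219 and 177 CPM in Zbp1-KO, with Lep at 0 in every library. All 5 tested genes of that list were higher in both Zbp1-KO libraries, as were 16.0% of all genes. Among them Cfd was 1 of the 2 genes called over all genes, with a log2 fold change of 2.20 ± 0.23 (SE, edgeR adjusted p = 0.00889). Collecting duct markers (6 genes) summed to 1224 and 1315 CPM in WT, against 1040 and 823 CPM in Zbp1-KO, a sum mostly of Aqp2, whereas 3 of the 6 genes had a log2 fold change above 0. Immediate-early genes (10 genes) summed to 499 and 188 CPM in WT, against 106 and 121 CPM in Zbp1-KO. The part of these cell types and genes in the levels of the chains was not tested.

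Ratios within each network overlapped between genotypes. Per kilobase, Col4a1 stood above Col4a2 in every library, with ratios of 1.36 and 1.30 in WT, against 1.35 and 1.17 in Zbp1-KO (exact permutation p = 0.667, two-sided). Col4a3 and Col4a4 were near 1 to 1, with ratios of 0.995 and 0.851 in WT, against 0.843 and 1.02 in Zbp1-KO (exact permutation p = 1.00, two-sided). As a share of the 5 collagen IV chains per kilobase, Col4a1 took 37.6% and 40.6% in WT, against 33.3% and 34.6% in Zbp1-KO. Col4a5 took 6.88% to 10.5%, the smallest of the 5 in each library. Col4a6, which pairs with Col4a5 in other basement membranes, was low, with 10.1 and 5.73 CPM in WT, against 5.97 and 6.14 CPM in Zbp1-KO.

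Laminin chains and nidogen overlapped between genotypes throughout. Lama5 (ENSMUSG00000015647, chr2:180176373-180225859, minus strand), the alpha chain of laminins α5β1γ1 and α5β2γ1, measured 179 and 189 CPM in WT, against 183 and 206 CPM in Zbp1-KO. Its log2 fold change was 0.080 ± 0.18 (SE). Lamc1 (ENSMUSG00000026478, chr1:153218922-153332786, minus strand), the gamma chain of laminins α5β1γ1 and α5β2γ1, measured 34.6 and 36.6 CPM in WT, against 38.3 and 34.9 CPM in Zbp1-KO. Its log2 fold change was 0.041 ± 0.21 (SE). The 4 values of each of these genes lay close together, with a standard deviation per kilobase of 1.04 on a mean of 16.6 for Lama5 and of 0.206 on a mean of 4.36 for Lamc1. Lamc3, a gamma chain that is not a member, measured 33.3 and 47.3 CPM in WT, against 20.1 and 38.0 CPM in Zbp1-KO. Its mean per kilobase, 5.69, was above that of Lamc1.

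The beta chain is that of Lamb2 in laminin α5β2γ1 and that of Lamb1 in laminin α5β1γ1. In RNA of a bulk tissue, the share of either that came from glomeruli was not measured. Lamb2 (ENSMUSG00000052911, chr9:108479736-108490530, plus strand), whose loss causes Pierson syndrome with proteinuria, measured 64.6 and 94.8 CPM in WT, against 74.3 and 94.7 CPM in Zbp1-KO. Lamb1 (ENSMUSG00000002900, chr12:31265234-31329644, plus strand) measured 136 and 160 CPM in WT, against 121 and 154 CPM in Zbp1-KO. In both genes the replicates of a genotype differed more than the genotypes, and the log2 fold changes were 0.084 ± 0.22 and −0.11 ± 0.19 (SE). The ratio of Lamb2 to Lamb1 per kilobase was 0.772 and 0.964 in WT, against 1.00 and 0.999 in Zbp1-KO. The Zbp1-KO ratios were both higher, by a log2 difference of 0.21 (exact permutation p = 0.33, two-sided, the smallest possible), which was 0.054 without WT 1. The ratios as levels depend on the exon length used. With the longest coding transcript, the mean level was 24.7 CPM per kilobase for Lamb1 and 14.6 for Lamb2, and the log2 difference stayed 0.21.

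Nid1 (ENSMUSG00000005397, chr13:13437551-13512269, plus strand), which links the laminin and collagen networks, varied most among these 5 genes. It measured 92.3 and 139 CPM in WT, against 83.2 and 118 CPM in Zbp1-KO. Replicate 2 was higher than replicate 1 in both genotypes, although the numbers give no sign of pairing across all genes, and the groups overlapped. The log2 fold change was −0.21 ± 0.24 (SE), and 0.11 without WT 2. Similarly, for 7 of the 10 members the gap between the Zbp1-KO libraries exceeded the genotype difference, as did the gap between the WT libraries for 7. The median absolute log2 gap was 0.24 between the WT libraries and 0.28 between the Zbp1-KO libraries, against a median absolute genotype difference of 0.14.

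**Figure D3:**
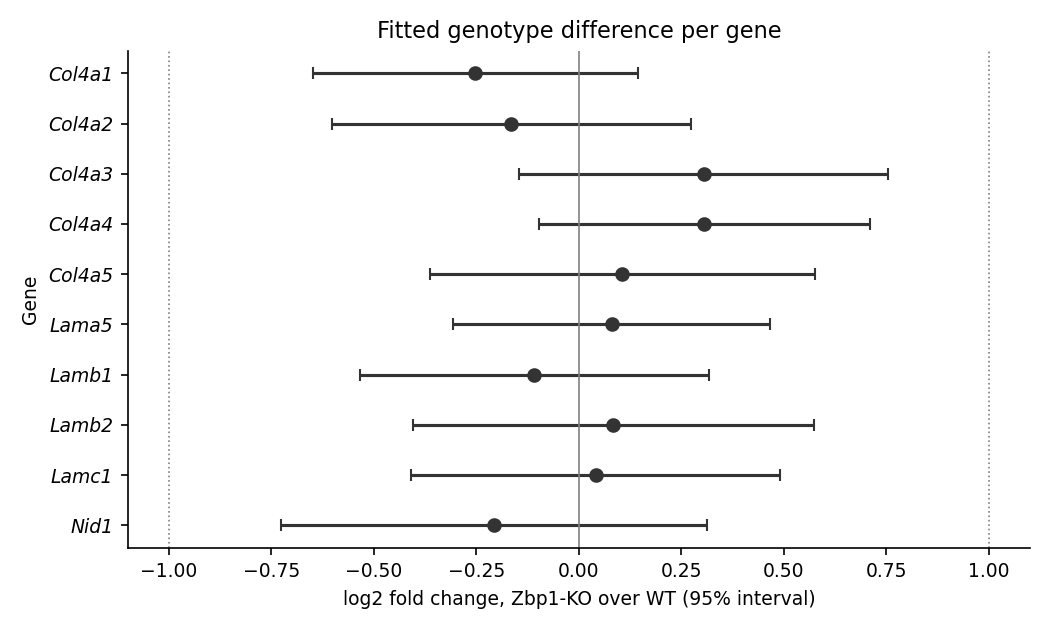
Log2 fold change of Zbp1-KO over WT for each member from the edgeR fit, with its 95% interval; the solid line marks no change and the dotted lines a 2-fold change either way. All 10 intervals include 0 and none reaches a 2-fold change.

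Levels of different members were compared per kilobase of exon, over the libraries of both genotypes. Col4a1 had the highest level, 34.3 ± 4.35 CPM per kilobase (SD, n = 4 libraries), and Col4a2 followed with 26.7 ± 3.97, lower than Col4a1 in 4 of 4 libraries. Both were above the other 8 members in every library. Lama5 (16.6), Nid1 (15.6), Lamb1 (14.4), Lamb2 (13.5), Col4a4 (13.1) and Col4a3 (12.1) formed a middle group in which the range of each gene over the libraries overlapped that of its neighbour. Col4a5 (7.64 ± 1.14) and Lamc1 (4.36 ± 0.206) were lowest, and the ranges of these 2 did not overlap. The exon length used is the union of all annotated exons. With the length of the longest coding transcript in its place, Lamb1 moved from the fifth to the third place, at 24.7 CPM per kilobase, and the 2 highest and the 2 lowest genes kept their places.

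Other genes of the basement membrane were then counted, from 6 lists of components, receptors, maturation and turnover enzymes. Of 59 genes that are not members, 58 were tested, and 0 were called in either direction by edgeR, by its exact test or by DESeq2. With the unadjusted p, 1 was under 0.05 and higher and 2 were under 0.05 and lower, beside 1.91% and 1.97% of all genes. The median log2 fold change was −0.12, with 21 genes above 0 and 37 below. The 7 other laminin chains had a median of −0.48, with 6 of 7 below 0. Among them Lama2, the alpha chain of muscle and mesenchymal basement membranes, measured 36.1 and 57.6 CPM in WT, against 26.3 and 35.9 CPM in Zbp1-KO, lower in both, although WT 1 and Zbp1-KO 2 nearly met. Its log2 fold change was −0.60 ± 0.26 (SE, edgeR adjusted p = 0.999, unadjusted p = 0.0421). Lama4, the alpha chain of endothelial laminin, had a log2 fold change of −0.21 ± 0.39 (SE).

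Proteoglycans and nidogen 2 were also not called. Hspg2, which encodes perlecan, measured 117 and 124 CPM in WT, against 138 and 124 CPM in Zbp1-KO, with a log2 fold change of 0.12 ± 0.18 (SE). Agrn, which encodes agrin of the glomerular basement membrane, had one of 0.075 ± 0.19 (SE). Nid2 did not overlap between genotypes, with 25.3 and 25.9 CPM in WT, against 19.8 and 20.4 CPM in Zbp1-KO, and a log2 fold change of −0.35 ± 0.23 (SE, edgeR adjusted p = 0.999). In the list of 15 other components the median was −0.0068, with 7 above 0 and 8 below.

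Of the 12 receptor genes, 3 had a log2 fold change above 0 and 9 below. Itga1, the α1 chain of a collagen-binding integrin that prefers type IV collagen, measured 62.2 and 73.3 CPM in WT, against 87.4 and 98.9 CPM in Zbp1-KO, higher in both. Its log2 fold change was 0.46 ± 0.19 (SE, edgeR adjusted p = 0.999, unadjusted p = 0.0329). Itga8, an integrin chain of mesangial and smooth muscle cells, measured 19.1 and 36.2 CPM in WT, against 8.55 and 21.3 CPM in Zbp1-KO. The groups overlapped, with a log2 fold change of −0.90 ± 0.41 (SE, edgeR adjusted p = 0.999, unadjusted p = 0.0465). The laminin receptor genes of podocytes differed little, with −0.076 ± 0.23 for Itga3, −0.13 ± 0.19 for Itgb1 and −0.026 ± 0.22 for Dag1 (log2 fold change, SE).

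Of the genes for collagen processing, 10 of 16 were above 0, with a median log2 fold change of 0.014. Serpinh1, the collagen chaperone Hsp47, had −0.21 ± 0.19 (SE). Pxdn, the peroxidase that crosslinks type IV collagen, had 0.33 ± 0.34 (SE), with its lowest value, 15.1 CPM, and its highest, 33.0 CPM, both in Zbp1-KO. In the turnover list, all 7 tested genes were below 0, with a median of −0.21 and 0 called, and Mmp7 was below the filter.

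**Figure D4:**
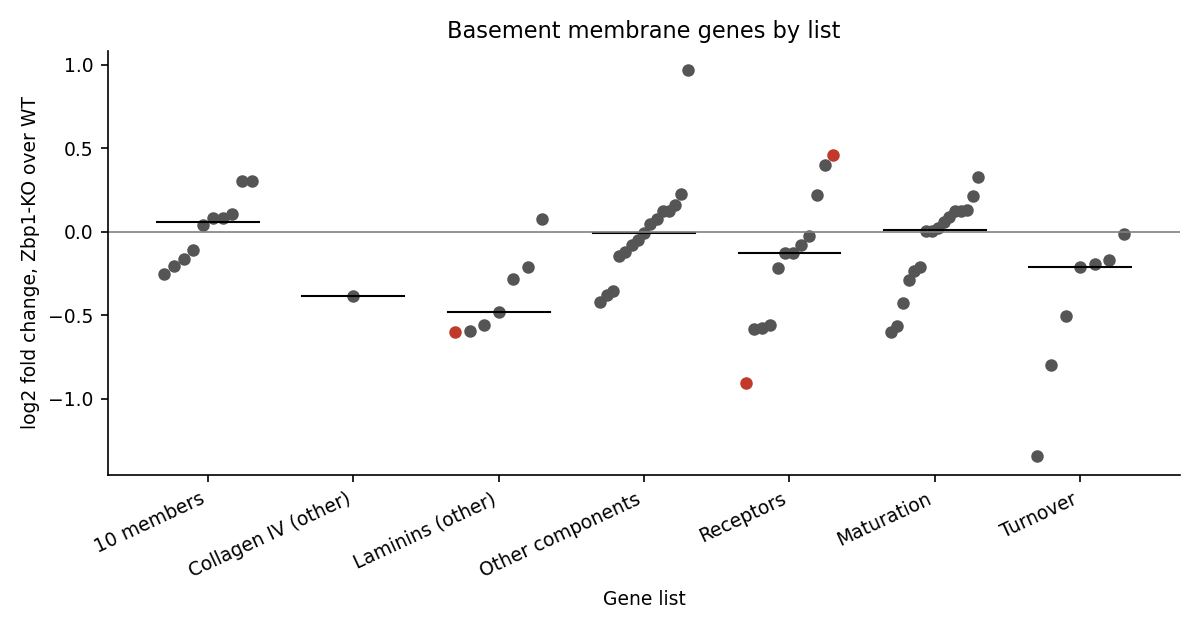
Log2 fold change of Zbp1-KO over WT for the 10 members and for 58 other tested genes in 6 lists; each point is a gene, lines are list medians, and red points have an unadjusted p under 0.05. The members lie between −0.25 and 0.31, and the 3 red points are Lama2, Itga8 and Itga1, none of them called after adjustment.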

How the data were processed

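Counts of read pairs per gene were analysed for 4 kidney libraries, 2 per genotype, grouped and numbered by the sample titles. The authors trimmed reads with Trimmomatic, aligned them with hisat2 to mm10 and used featureCounts on pairs that mapped to 1 place. What they deposited are raw counts per gene, not normalized. Program versions, annotation release and strand setting are not given in the sources used here. No molecular identifiers are named, and copies made by PCR may count as separate pairs.

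Symbols, positions and exon lengths were taken from GENCODE M21, which matched 54495 of 54532 IDs. The test was the two-sided quasi-likelihood F test of edgeR 4.0.16 (R 4.3.3) with genotype as the only term, filterByExpr (minimum count 10, minimum total 15), TMM normalization and Benjamini-Hochberg adjustment over all tested genes, called at an adjusted p under 0.05. SE is the absolute log2 fold change over the square root of F. Ratios between chains were compared by exact permutation over libraries. The fit was tested on simulated data, and no error rate from that is given here.

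Alternatives were other size factors, no count filter, a replicate block, the exact test of edgeR, DESeq2 1.42.0 and each library left out. Leaving out mitochondrial genes, the longest transcript as length and ratios to marker lists were added after the data were seen. Genes named are the members, Zbp1, direct partners of the members fixed by list, and pathway genes with an unadjusted p under 0.05. Other named genes (Synpo, Nphs1, Lep, Cfd, Aqp2, Mmp7, Lamc3, C430014B12Rik) were chosen after their values were seen. Members and lists were chosen with earlier results of these data known.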

Additional observations from a re-analysis of the deposited data

How the results depend on the processing

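No alternative called a member or another basement membrane gene: both counts were 0 in every setting, leaving out each library included. The median log2 fold change of the members stayed between 0.050 and 0.061 in all settings with 4 libraries and ran from −0.091 (without WT 1) to 0.094 (without WT 2) with 1 library left out. Over all genes, 2 were called, 41 with all genes of at least 1 count (more genes tested), 14 with the exact test, 7 with DESeq2, 4 without mitochondrial genes, and 0 (without WT 1) to 37 (without Zbp1-KO 2) with 1 library left out. The cause was not tested for the rest. With the replicate block 11 genes were called, 0 of them members, and same-numbered libraries had a correlation of deviations of 0.0040, no sign of pairing. Zbp1 was called with all genes of at least 1 count (log2 fold change −3.65) and with the exact test (−3.67), and its log2 fold change ran from −4.82 to −2.78 with 1 library left out, where −4.82 is a bound, taken at 3 counts for the library with 0. A lone library was taken to vary like the other group.

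Of 110 values of single members under alternatives, 12 changed sign, all with 1 library left out. The ranges were −0.40 to 0.025 for Col4a2, −0.15 to 0.30 for Col4a5, −0.014 to 0.16 for Lama5, −0.30 to 0.051 for Lamb1, −0.17 to 0.38 for Lamb2, −0.035 to 0.097 for Lamc1 and −0.48 to 0.11 for Nid1, whereas Col4a1 stayed below 0 (−0.37 to −0.16) and Col4a3 (0.071 to 0.57) and Col4a4 (0.17 to 0.44) above 0. The log2 ratio difference ran from −0.19 to 0.026 for Col4a1 to Col4a2 and from −0.13 to 0.15 for Col4a3 to Col4a4. It ran from −0.29 to 0.074 for the glomerular chains to podocyte markers, and from −0.11 to 0.53 for Col4a1 and Col4a2 to fibroblast matrix. Summed per kilobase, marker lists kept their direction except urothelium (from −0.062 to 0.0015).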
